A study of Homo sapiens with 64 samples.

Results

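The transcripts described here are those whose response to indacaterol, a long-acting agonist of the β2-adrenoceptor, differed between 2 and 6 h of treatment. The comparison took 16 of the 64 arrays of the series: cells of BEAS-2B, a human airway epithelial cell line, given 10 nM indacaterol for 2 h, vehicle for 2 h, indacaterol for 6 h or vehicle for 6 h, with 4 replicates in each group. For each gene the indacaterol minus vehicle difference at 2 h was subtracted from the indacaterol minus vehicle difference at 6 h, and this difference of differences was tested. A negative value means that the drug's effect was lower at 6 h than at 2 h, and a positive value that it was higher. Of 19775 genes tested, 11 passed at an adjusted p under 0.05, which is 0.0556% of the genes, 5 with a positive value (0.0253%) and 6 with a negative one (0.0303%). At an unadjusted p under 0.05 there were 716, fewer than the share of 0.05 that a calibrated test gives when no gene differs. This fit held no term for the replicate number, and more genes passed with one, as the last section gives. The reason for the low count was not tested.

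All 16 groups of the series came from the same line, grown in serum-free keratinocyte medium that held epidermal growth factor, pituitary extract and antibiotics. Each treatment was sampled at 1, 2, 6 and 18 h, and 32 further arrays, on which the same shift was also measured, received 10 nM indacaterol together with 10 nM GSK 256066, an inhibitor of the cAMP-degrading PDE4 enzymes, or GSK 256066 alone. Total RNA was amplified, labelled and hybridised to Affymetrix arrays, and a level is given as the deposited signal intensity, a linear scale with no unit. Differences were taken after adding 16 and taking log2, and for dim transcripts this shrinks the change.

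The β2-adrenoceptor couples to the G protein Gs and adenylyl cyclase, and the cAMP made there activates protein kinase A, which phosphorylates CREB, a transcription factor that binds cAMP response elements. Transcription driven in this way is known to be brief in many cells, because the receptor desensitises, phosphodiesterases remove cAMP, and the induced genes include repressors of their own class such as the short CREM products. Transcripts that decay quickly follow this pulse, while transcripts that are stable, or that need a protein made in the pulse, can appear after it. Inhaled β2-agonists are used as bronchodilators that relax airway smooth muscle, and the airway epithelium, which the drug meets as well, carries the same receptor.

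Replicate 3 stood apart from the other replicates of all 4 groups. Its arrays had KRT14 signals of 283124 to 355026, against 17.0 to 34.4 on the other 12 arrays, KRT5 signals of 30128 to 34584, against 125 to 269, and S100A9 signals of 116958 to 551557, against 87.4 to 191. These encode a pair of basal keratins and a calcium-binding protein of squamous epithelium and myeloid cells. Over all genes, the replicate 3 arrays read 4-fold or more above the other 12 without overlap for 108 and below them for 11, whereas setting apart another replicate gave 0 to 1 higher and 1 to 3 lower. The replicate 3 arrays also differed among themselves. Their summed signal of 14 squamous markers was 563287 with indacaterol and 124852 with vehicle at 6 h, and 204957 and 130615 at 2 h. Each group holds 1 such array, but not to an equal degree. The calls for the shift and part of the list results are therefore also given without replicate 3. The other results include it. The line's epithelial keratins KRT8 and KRT18 averaged 5322 and 8319, CDH1 462 and EPCAM 110.5, while the mesenchymal genes VIM and COL1A1 averaged 10790.4 and 8773. Further fibroblast markers were measured at 2918 for FBLN1, 1791 for PDGFRB and 1391 for THY1. The rest of that list was dim, from 23.4 for FAP to 187 for POSTN, with COL1A2 at 137, COL3A1 at 90.5 and DCN at 144. Of the leukocyte markers PTPRC averaged 28.8, and the highest were CD79A at 674 and LYZ at 363. Of the ciliated and secretory markers FOXJ1 averaged 18.6 and SCGB1A1 54.2, and the highest were SPDEF at 252, MUC5AC at 155 and DNAI1 at 151. None of the 12 fibroblast, 10 leukocyte, 11 ciliated or secretory, 14 squamous and 9 airway epithelial markers measured passed in the difference of differences. Array medians ran from 111.9 to 123.7. The labels do not say whether replicates were separate cultures, so p-values measure the spread between these samples, and 4 arrays a group limit the precision. Same-numbered samples deviated together in 23 of 24 pairs. The main fit holds no term for the replicate number, so these shared deviations stay in its estimate of spread. Genes given below as not passing did not pass in that fit. Several of them passed with the number as a block, as the last section gives.

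At 2 h 237 genes passed between indacaterol and vehicle by limma, 195 higher and 42 lower (1.20% of genes), and at 6 h 54 passed, 45 higher and 9 lower (0.273%). The 11 genes that passed for the shift itself fell into 3 patterns, drawn in the plot of the 2 h effect against the 6 h effect. SGK1, NR4A1, ITPRIP, EDN1, TRIB1 and TBX3 were raised at 2 h and nearer to vehicle at 6 h. CSGALNACT1 and PDE7B differed little from vehicle at 2 h and were raised at 6 h. BORA, HJURP and PHF23 were lowered at 2 h and lay close to vehicle at 6 h. In bulk RNA a change in the number of cells of a kind and a change in RNA per cell cannot be told apart.

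**Figure D1:**
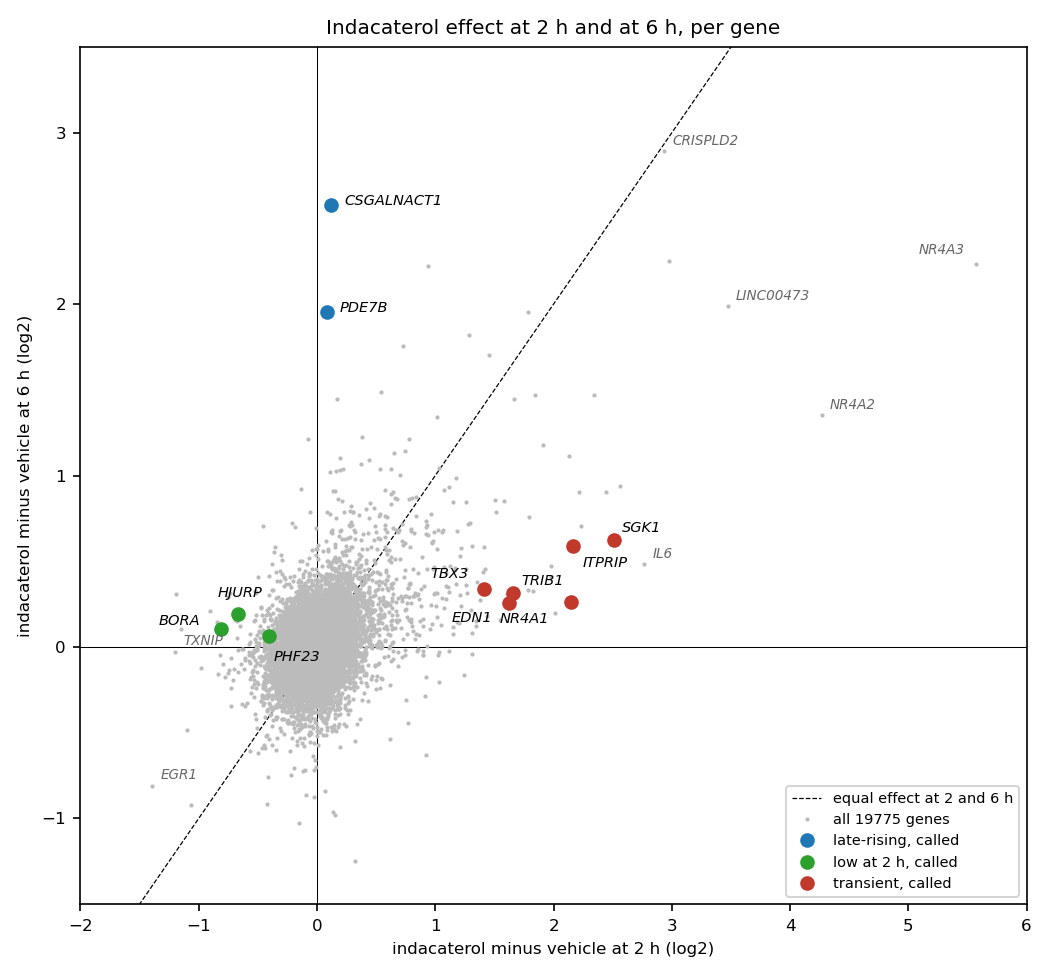
Indacaterol minus vehicle difference at 2 h (horizontal, log2) and at 6 h (vertical, log2) for each of 19775 genes, with the dashed line marking an equal effect at both times. The 11 genes that passed for the difference of differences are marked by name: CSGALNACT1 and PDE7B lie near 0 at 2 h and high at 6 h, while SGK1, NR4A1 and ITPRIP lie above 2 at 2 h and below 0.7 at 6 h.

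SGK1, the serum- and glucocorticoid-inducible kinase that controls ion channels and transporters, had the greatest negative difference of differences among the genes that passed. Its signals on replicates 1 to 4 were 6502, 4857, 3810.4 and 4764 with indacaterol for 2 h, against 729, 1192, 550.2 and 1077 with vehicle. At 6 h they were 1679, 1944, 1237 and 1732 with indacaterol, against 1035, 1323, 666 and 1338 with vehicle. Every 2 h indacaterol array lay far above every vehicle array, whereas at 6 h the groups overlapped, and replicate 3 was the lowest array of all 4 groups. The effect was 5.68-fold at 2 h and 1.54-fold at 6 h on the log2(signal + 16) scale, a difference of differences of -1.89 ± 0.32 (SE, 4 arrays per group; limma adjusted p = 0.00184). SGK1 lies at chr6:134169256-134318112 (GRCh38.p14).

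EDN1, which encodes the vasoconstrictor peptide endothelin-1, showed the same course. With indacaterol for 2 h it read 3158, 3002, 2668 and 2866, against 1046, 1098, 643 and 1027 with vehicle. With indacaterol for 6 h it read 1023, 1367, 718 and 1119, against 1006, 1004, 557 and 973 with vehicle. The 2 h groups were separated by more than the whole span of either, and the 6 h groups overlapped. The difference of differences was -1.37 ± 0.26 (limma adjusted p = 0.00771), with folds of 3.09 at 2 h and 1.19 at 6 h. Of its other probe sets, one gave -1.49 and the dimmer one -0.27. Of 3 RefSeq promoter windows at EDN1 (chr6:12230516-12297194), each running from 250 bases before a start to 50 after it, 1 held the TGACG core of the cAMP response element, at position -142 from the start. That window is shown because no other transient gene with a window had a match, and it was chosen once the match was known. It lies at chr6:12289764-12290063 on the plus strand of GRCh38.p14, and the capitals mark the core.
EDN1: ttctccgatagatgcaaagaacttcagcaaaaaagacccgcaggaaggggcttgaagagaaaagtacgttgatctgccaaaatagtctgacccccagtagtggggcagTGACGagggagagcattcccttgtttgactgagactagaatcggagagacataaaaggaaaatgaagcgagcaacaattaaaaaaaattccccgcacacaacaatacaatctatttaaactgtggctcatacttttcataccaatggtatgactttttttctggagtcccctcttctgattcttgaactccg

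NR4A1, an orphan nuclear receptor induced at once by cAMP in many cells, gave signals of 793, 561, 808 and 488 with indacaterol for 2 h, against 178, 173, 91.1 and 113 with vehicle. At 6 h it gave 143, 85.5, 74.1 and 87.7 with indacaterol, against 106, 90.0, 59.5 and 59.0 with vehicle. The 2 h groups did not overlap and the 6 h groups did. Its difference of differences was -1.88 ± 0.37 (limma adjusted p = 0.0132). The probe set used and another that gave -1.68 are of a design that can also bind related transcripts, and a dim one at 82.7 gave -0.040. NR4A1 lies at chr12:52022832-52059503. The other members of the receptor family had wider differences that did not pass: NR4A3 at -3.34 ± 0.82 (limma adjusted p = 0.118) and NR4A2 at -2.91 ± 1.06 (limma adjusted p = 0.941). NR4A3 read 3091, 1394, 3054 and 1145 with indacaterol for 2 h, against 40.4, 34.9, 14.9 and 18.0 with vehicle. At 6 h NR4A3 read 258, 72.0, 73.6 and 57.6 with indacaterol, against 10.1, 7.97, 12.3 and 2.48 with vehicle. All NR4A3 indacaterol arrays were above all vehicle arrays at both times, and the vehicle arrays were dim.

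ITPRIP, which encodes a protein that binds the inositol trisphosphate receptor, read 3142, 2502, 2668 and 2281 with indacaterol for 2 h, against 634, 594, 585 and 500.0 with vehicle. With indacaterol for 6 h it read 1338, 963, 895 and 857, against 785, 636, 663 and 563 with vehicle. The indacaterol arrays stayed above all vehicle arrays at 6 h as well, by less than at 2 h. Its difference of differences was -1.57 ± 0.31 (limma adjusted p = 0.0128) and its other probe set gave -1.26. ITPRIP lies at chr10:104309700-104338465.

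TRIB1, a pseudokinase that brings C/EBP proteins to the COP1 ubiquitin ligase, read 1389, 1502, 1066 and 1327 with indacaterol for 2 h, against 349.6, 529, 341 and 426 with vehicle. With 6 h of indacaterol TRIB1 read 422, 480.4, 318 and 425, against 315, 412, 261 and 326 with vehicle. The arrays were apart at 2 h and overlapped at 6 h, and the difference of differences was -1.34 ± 0.26 (limma adjusted p = 0.0128). Its other bright probe set gave -1.36. TRIB1 lies at chr8:125430358-125438403.

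TBX3, a T-box transcription factor that mostly represses its targets, read 557, 447, 483 and 380.0 with indacaterol for 2 h, against 156, 177, 189 and 137 with vehicle. The 6 h indacaterol arrays read 297, 264, 236 and 242, against 175, 233, 228 and 174 with vehicle. Indacaterol arrays were above all vehicle arrays at both times, at 6 h by a narrow gap. The difference of differences was -1.07 ± 0.20 (limma adjusted p = 0.00670), and the next brightest probe sets gave -1.40 and -0.45, with 4 dimmer ones between -0.35 and 0.32. TBX3 lies at chr12:114670255-114684175.

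The genes with the next smallest p-values and a negative difference of at least 1 did not pass. They were ZNF331, a zinc finger repressor, at -1.57 ± 0.36 (limma adjusted p = 0.0759), PRAG1, a pseudokinase scaffold, at -1.41 ± 0.33 (limma adjusted p = 0.0905), LRRC75A at -1.10 ± 0.25 (limma adjusted p = 0.0726) and TGIF1, a repressor of TGF-β signalling, at -1.03 ± 0.24 (limma adjusted p = 0.0905). Just beyond the threshold on this side lay BNC1, a zinc finger protein of basal keratinocytes, at -0.78 ± 0.17 (limma adjusted p = 0.0608), and REL, an NF-κB subunit, at -0.87 ± 0.19 (limma adjusted p = 0.0619).

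PDE7B, a phosphodiesterase that hydrolyses cAMP and is not of the PDE4 family, was raised at 6 h and did not pass at 2 h. It read 166, 141, 93.6 and 161 with indacaterol for 2 h, against 142, 134, 89.0 and 161 with vehicle. After 6 h PDE7B read 434, 452, 400.1 and 468 with indacaterol, against 122, 114, 95.6 and 78.0 with vehicle. The 2 h groups overlapped, and at 6 h the lowest indacaterol array was more than 3-fold above the highest vehicle array. The effect was 1.06-fold at 2 h and 3.87-fold at 6 h, and the difference of differences 1.87 ± 0.31 (limma adjusted p = 0.00184). The dimmer probe sets gave 0.49 and 1.40. PDE7B (chr6:135851701-136195574) was the only gene, of the 8 among the 11 with a promoter window, to hold the whole palindrome TGACGTCA, at position -155 from the start, where 3.10% of the 15384 tested genes with a RefSeq window hold it. The window is shown for that reason. It lies at chr6:135851451-135851750 on the plus strand of GRCh38.p14, and the capitals mark the palindrome.
PDE7B: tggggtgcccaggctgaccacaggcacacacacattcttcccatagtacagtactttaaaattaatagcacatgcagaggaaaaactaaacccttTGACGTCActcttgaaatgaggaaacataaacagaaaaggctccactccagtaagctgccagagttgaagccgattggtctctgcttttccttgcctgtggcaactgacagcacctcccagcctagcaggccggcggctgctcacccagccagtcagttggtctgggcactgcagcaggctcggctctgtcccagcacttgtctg

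The core TGACG, counted on either strand and including its matches inside the palindrome, was in the windows of 34.7% of the 15384 genes. No match of core or palindrome was found in the windows of SGK1 (3 windows), NR4A1, ITPRIP and PHF23 (2 each), or BORA and HJURP (1 each). TBX3, TRIB1 and CSGALNACT1 had no window used here. A match says only that the letters are present.

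CSGALNACT1, which adds the N-acetylgalactosamine that starts a chondroitin sulphate chain, had the greatest difference of differences of all genes that passed. It read 168, 177, 135 and 122 with indacaterol for 2 h, against 143, 145, 176 and 91.6 with vehicle. After 6 h CSGALNACT1 read 1330.2, 635, 729.9 and 763 with indacaterol, against 146, 109.9, 95.5 and 159.6 with vehicle. The 2 h groups overlapped, and at 6 h every indacaterol array was above every vehicle array, with replicate 1 the highest. The effect was 1.09-fold at 2 h and 5.97-fold at 6 h, and the difference of differences 2.46 ± 0.36 (limma adjusted p = 0.000175). A second CSGALNACT1 probe set, mean signal 109, gave 0.041, so the shift was seen by 1 of the gene's 2 probe sets. CSGALNACT1 lies at chr8:19404161-19757908.

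BORA, HJURP and PHF23 made the third pattern. BORA, the Aurora A activator that helps switch on PLK1 before mitosis, read 551, 487, 412 and 428 with indacaterol for 2 h, against 880.3, 831, 901 and 727 with vehicle. With 6 h of indacaterol BORA read 835, 751, 769 and 662, against 760.2, 740.0, 658 and 642 with vehicle. Every indacaterol array was below every vehicle array at 2 h, and the 6 h groups overlapped. Vehicle over indacaterol was 1.76-fold at 2 h, and the difference of differences was 0.92 ± 0.17 (limma adjusted p = 0.00562). BORA lies at chr13:72727923-72756196.

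HJURP, the chaperone that loads the centromeric histone CENP-A, read 1786, 1399.6, 1162 and 1406 with indacaterol for 2 h, against 2613, 2215, 2281 and 1987 with vehicle. At 6 h it read 2667, 2127, 2285 and 2132 with indacaterol, against 2327, 1937, 1843 and 1949 with vehicle. The groups were apart at 2 h, with indacaterol lower, and overlapped at 6 h. Its difference of differences was 0.86 ± 0.18 (limma adjusted p = 0.0322), the nearest to the threshold of the genes that passed. Just beyond it lay CCNF, a cyclin that serves as a ubiquitin ligase subunit, at 1.00 ± 0.22 (limma adjusted p = 0.0581). HJURP lies at chr2:233836702-233854535.

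PHF23, a PHD finger protein that binds a methylated histone tail, read 1395, 1338, 1327 and 1379.9 with indacaterol for 2 h, against 1805, 1845, 1843 and 1719 with vehicle. At 6 h it read 1756, 1638, 1680.4 and 1679 with indacaterol, against 1619.5, 1630.3, 1618 and 1591 with vehicle. Indacaterol arrays were all below vehicle at 2 h and all just above vehicle at 6 h. The change was small and the replicates close together, with a difference of differences of 0.47 ± 0.091 (limma adjusted p = 0.0128) and 0.53 on its other probe set. PHF23 lies at chr17:7235038-7240828. Among all 19775 genes, the 4 indacaterol and the 4 vehicle arrays did not overlap for 5.50% at 2 h and for 3.76% at 6 h, the background for the gaps described here.

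**Figure D2:**
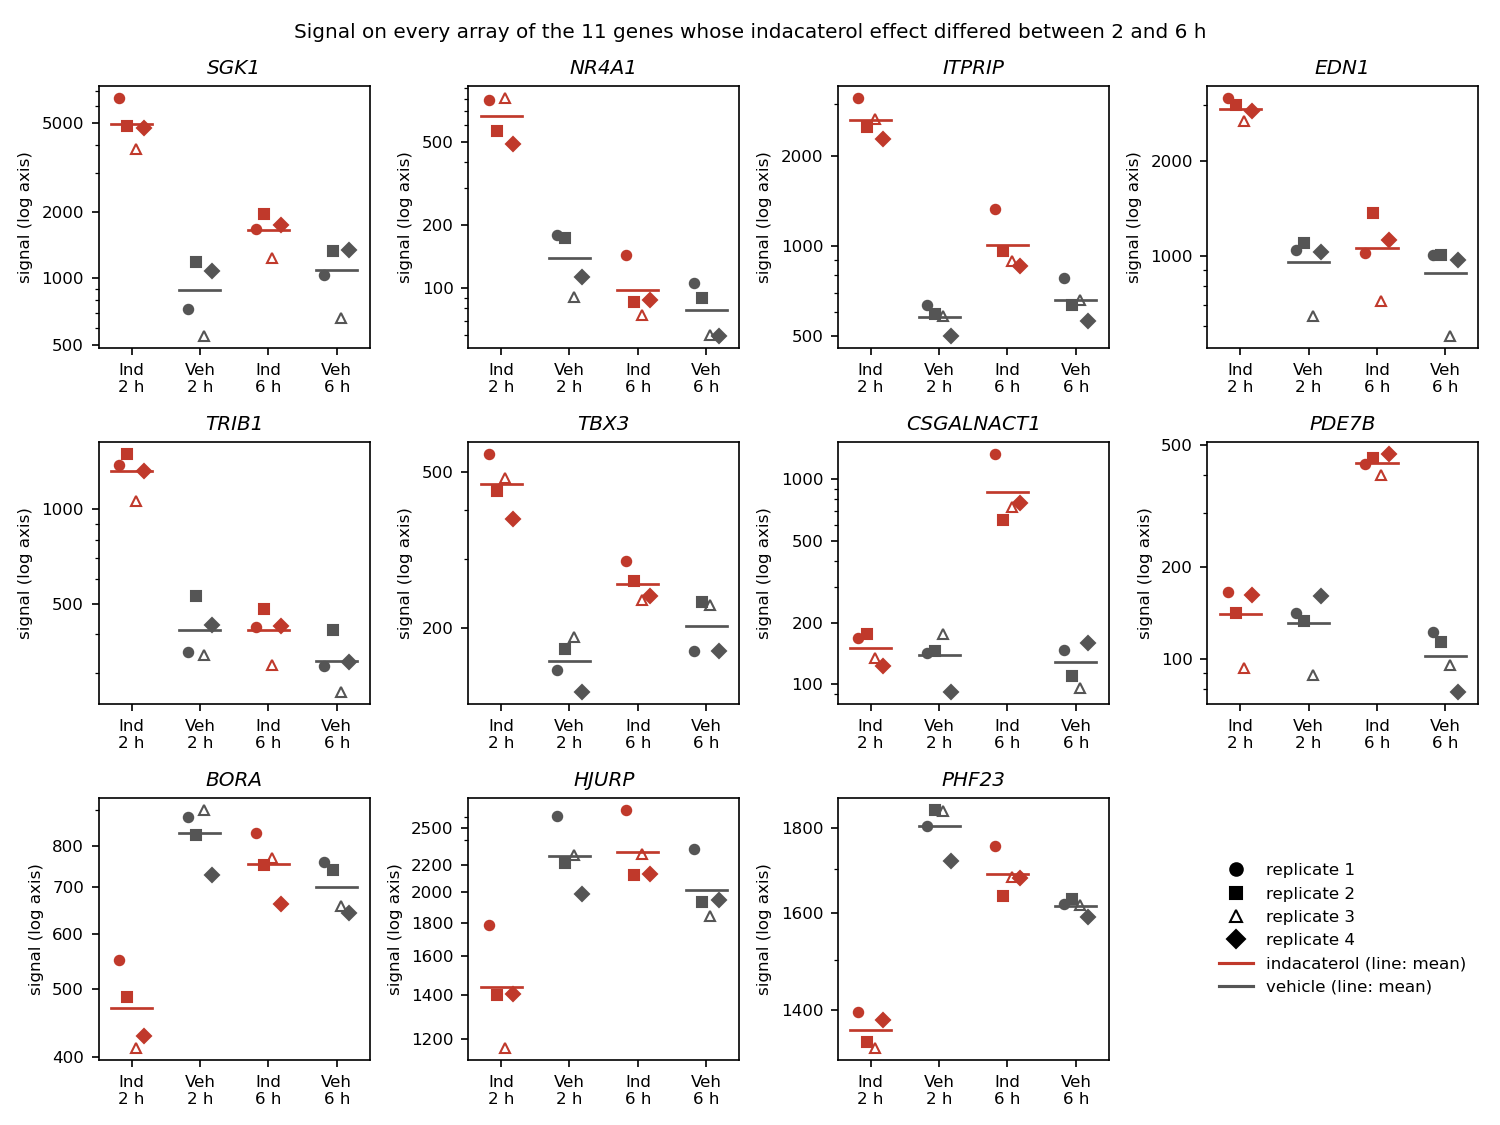
Signal of each array (log axis) for the 11 genes that passed, in the order indacaterol 2 h, vehicle 2 h, indacaterol 6 h and vehicle 6 h, with a line at the mean of 4 arrays and an open triangle for replicate 3. The 6 transient genes are high in the 2 h indacaterol arrays, CSGALNACT1 and PDE7B in the 6 h indacaterol arrays, and BORA, HJURP and PHF23 are low in the 2 h indacaterol arrays.

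TXNIP, the arrestin-like protein that limits glucose uptake, had a wider positive difference than BORA and did not pass. It read 1466, 1647, 995 and 1631 with indacaterol for 2 h, against 3363, 3566, 2757 and 3419 with vehicle. At 6 h it read 4663, 4620.1, 3180.4 and 5550.3 with indacaterol, against 4713, 4972, 3354 and 5217 with vehicle. All 2 h indacaterol arrays were below all vehicle arrays and the 6 h groups overlapped, and the difference of differences was 1.18 ± 0.30 (limma adjusted p = 0.136), with 1.33 and 1.34 on its other probe sets. The remaining genes named by the rule with a positive difference also did not pass. The O-glycosylation enzyme gene GALNT15 had 1.03 ± 0.37 (limma adjusted p = 0.894), the antisense transcript PKIA-AS1 1.05 ± 0.29 (limma adjusted p = 0.308), the water channel gene AQP4 1.16 ± 0.44 and the adhesion receptor gene ADGRD1 1.06 ± 0.48, both with a limma adjusted p of 1.00. GALNT15 was above vehicle at 6 h, with an effect of 1.76 (limma adjusted p = 3.28e-05), against 0.73 at 2 h (limma adjusted p = 0.259).

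A difference of differences can come from the drug arrays or from the vehicle arrays, so both arms were compared between times. Between 2 and 6 h 240 genes passed in the indacaterol arm by limma, 1.21% of all genes, with 99 higher at 6 h (0.501%) and 141 lower (0.713%). In the vehicle arm 15 passed (0.0759%), 8 higher (0.0405%) and 7 lower (0.0354%). For SGK1 the indacaterol arm fell by 1.58 on the log2 scale and the vehicle arm rose by 0.31, and for ITPRIP the values were -1.38 and 0.19. For NR4A1 the indacaterol arm had -2.58 and the vehicle arm -0.70, in the same direction. For CSGALNACT1 the indacaterol arm had 2.36 and the vehicle arm -0.10, and for PDE7B 1.56 and -0.30. BORA had 0.67 in the indacaterol arm and -0.25 in the vehicle arm. In all 11 the indacaterol arm carried the greater part of the difference, with vehicle values between -0.70 and 0.31.

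At 1 and 18 h, times that the rule did not use, the patterns were as follows. Of the transient genes 5 had risen at 1 h by limma, by 2.20 for SGK1, 2.13 for TRIB1, 1.77 for EDN1, 1.66 for NR4A1 and 1.37 for ITPRIP. TBX3 had 0.52 (limma adjusted p = 0.133) and did not pass. EDN1 and TRIB1 had their highest effect at 1 h and the other 4 at 2 h. CSGALNACT1 had 0.49 (limma adjusted p = 0.740) and PDE7B -0.22 (limma adjusted p = 1.00) at 1 h, and neither passed. BORA, HJURP and PHF23 had -0.28, -0.23 and -0.23 at 1 h, and none of the 3 passed then. At 18 h none of the 11 passed, and their effects lay between -0.21 for TBX3 and 0.62 for PDE7B (limma adjusted p = 0.850). Over all genes, 42 passed at 1 h (0.212%), 37 higher (0.187%) and 5 lower (0.0253%), and 1 at 18 h (0.00506%).

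**Figure D3:**
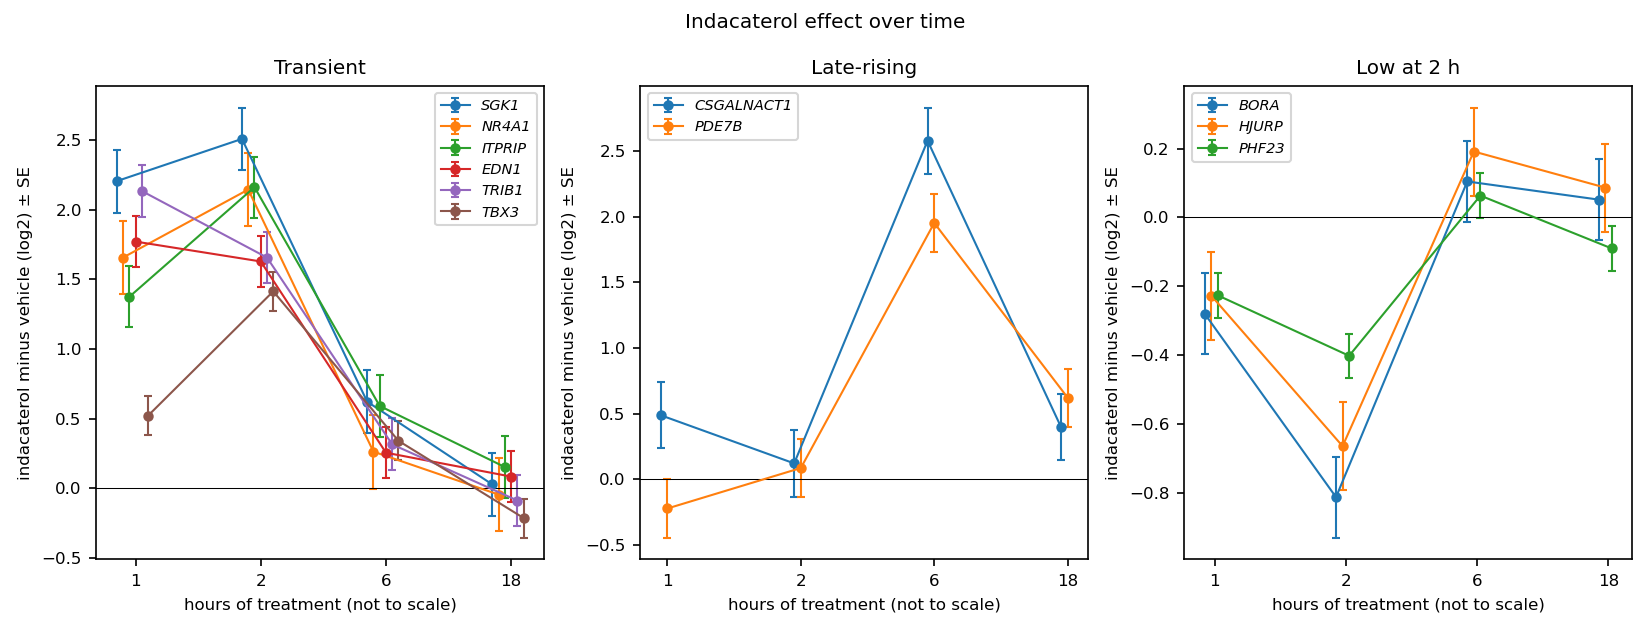
Indacaterol minus vehicle difference (log2, with its SE, 4 arrays per group) at 1, 2, 6 and 18 h for the 11 genes that passed, in 3 panels by pattern. The transient genes are highest at 1 or 2 h, CSGALNACT1 and PDE7B at 6 h, and BORA, HJURP and PHF23 are lowest at 2 h.

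The same shift was then measured in arrays that the rule did not use, indacaterol with GSK 256066 against GSK 256066 alone at 2 and 6 h. Both comparisons rest on the same estimate of each gene's spread, so their p-values are not independent. All 11 genes had the same sign in the arrays with GSK 256066, and all 11 had an unadjusted p under 0.05, where 2.88% of all genes did. With adjustment over all genes 6 genes passed in that arm (0.0303%), 3 in each direction (0.0152%), and 3 of the 6 were among the 11: CSGALNACT1 at 2.68 ± 0.36 (limma adjusted p = 1.84e-05), TBX3 at -1.22 ± 0.20 (limma adjusted p = 0.00114) and PDE7B at 1.57 ± 0.31 (limma adjusted p = 0.0245). CSGALNACT1 read 1598, 678, 1229 and 903 with both drugs for 6 h, against 156, 151, 99.5 and 131 with GSK 256066 alone. PDE7B read 562, 419.8, 484 and 486 with both drugs for 6 h, against 201, 121, 183 and 104 with GSK 256066 alone. Neither pair of groups overlapped. Because the 11 were chosen for their shift without GSK 256066, smaller values are likely in any other arrays. The size of the shift was smaller in the presence of GSK 256066 for 9 of the 11, for example -0.77 for NR4A1, against -1.88 without it, and -0.86 for ITPRIP, against -1.57. That contrast of the shifts was tested too. It was called for 0 of 19775 genes by limma, with 183 at an unadjusted p under 0.05, and among the 11 the lowest unadjusted p was 0.0408 for NR4A1, whose difference of 1.11 had a 95% interval of 0.048 to 2.18. The other 3 genes that passed with GSK 256066 present were LRRC75A at -1.31, EPHA5 at 1.12 and AGFG2 at -0.78. Without replicate 3 the number of genes passing with GSK 256066 present was 16.

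**Figure D4:**
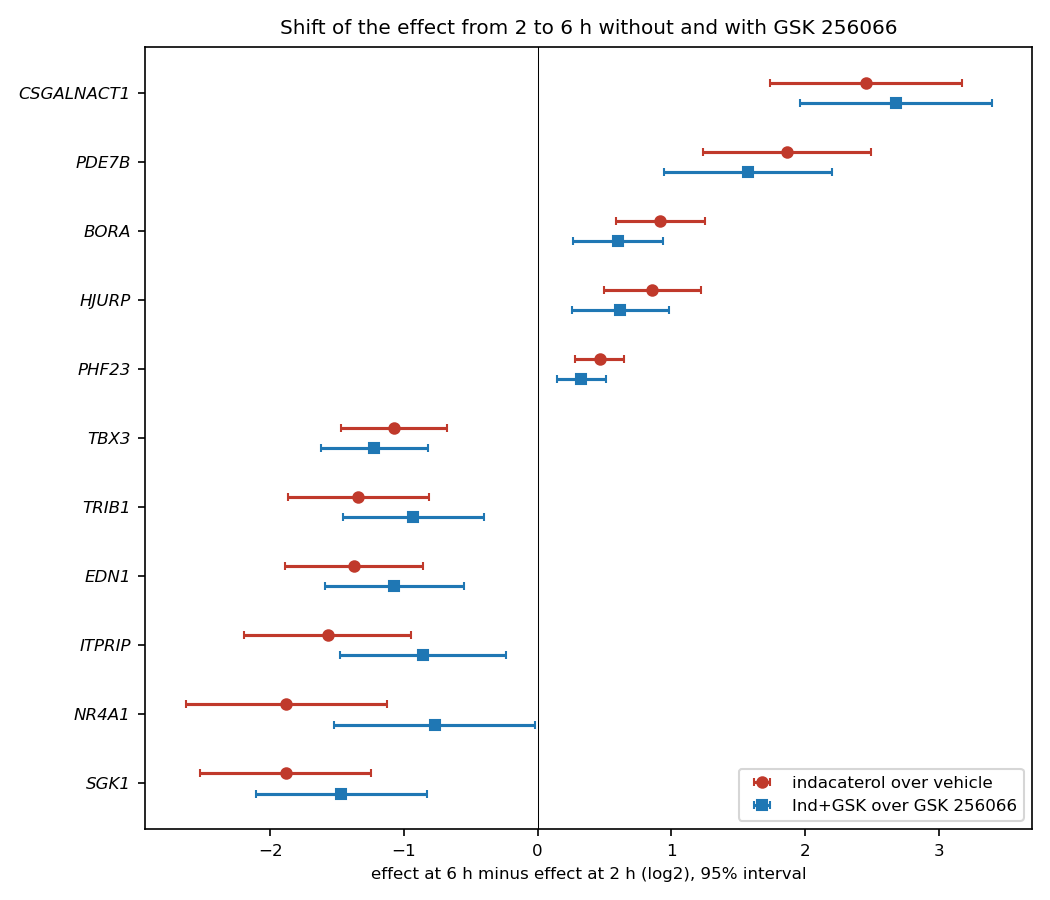
Difference of differences (6 h minus 2 h, log2, with 95% intervals) of the 11 genes for indacaterol over vehicle and for indacaterol with GSK 256066 over GSK 256066 alone. Every gene lies on the same side of 0 in both, and the intervals of each pair overlap.

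To widen the view beyond 11 genes without choosing on the arrays being described, genes were grouped by their calls between indacaterol with GSK 256066 and GSK 256066 alone, and their values read from the indacaterol and vehicle arrays. Of 144 genes called higher at 2 h and not at 6 h in that arm (168 and 55 were called higher at 2 and 6 h, 0.850% and 0.278%), 141 or 97.9% had a negative difference of differences between indacaterol and vehicle, against 51.1% of all genes. Their median effect was 0.72 at 2 h and 0.23 at 6 h. By limma 120 of them passed at 2 h, where 0.986% of all genes passed in that direction. At 6 h 1 passed, IGFBP3, which binds insulin-like growth factors, and 5 passed for the shift. The 3 exceptions with a positive value were CLASP1, LINGO1 and RMND5A. Genes of these sets that are not among the 11 are named after their values were seen. The choice and the tests share each gene's estimate of spread. The counts passing in this and the other sets are therefore not independent of the choice.

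The 31 genes called higher at 6 h and not at 2 h in that arm showed the opposite order. Their median effect between indacaterol and vehicle was 0.24 at 2 h and 0.71 at 6 h, 30 of 31 had a positive difference of differences, all but PTP4A1, and 22 passed at 6 h, where 0.228% of all genes passed in that direction. Beside CSGALNACT1 and PDE7B this set held the ephrin receptor gene EPHA5, the endoplasmic calcium channel gene ITPR1, the coagulation inhibitor gene TFPI, the growth factor receptor gene IGF1R, the cytokine receptor gene OSMR and the secreted factor gene WNT4. EPHA5 read 119, 120.5, 127 and 130.3 with indacaterol for 6 h, against 43.7, 57.8, 45.6 and 50.3 with vehicle. Its arrays were apart at 6 h, and its difference of differences of 0.91 ± 0.22 did not pass (limma adjusted p = 0.0905). The 6 h effects were 1.34 for WNT4, 0.86 for ITPR1, 0.84 for IGF1R, 0.71 for TFPI and 0.42 for OSMR.

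Another 24 genes were called higher at both times in that arm, and between indacaterol and vehicle their median effect was 0.80 at 2 h and 0.63 at 6 h. The secreted glycoprotein gene CRISPLD2 was raised at both times, with 2.94 at 2 h and 2.89 at 6 h. The metalloreductase gene STEAP4 had 1.29 and 1.82, and the cationic amino acid transporter gene SLC7A2 1.46 and 1.70. Of the 24, 1 passed for the shift, ITPRIP.

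Downward effects were fewer. The 13 genes called lower at 2 h and not at 6 h with GSK 256066 present (15 and 16 were called lower at 2 and 6 h, 0.0759% and 0.0809%) all had a positive difference of differences between indacaterol and vehicle, 11 of them passed at 2 h, where 0.212% of all genes passed in that direction, and 0 at 6 h. Beside BORA, HJURP and PHF23, which passed for the shift, they held the mitotic genes CDCA8, CDCA2 and FAM83D. The 14 genes called lower at 6 h and not at 2 h all had a negative one, with a median effect of -0.039 at 2 h and -0.35 at 6 h. Of these, 3 passed at 6 h between indacaterol and vehicle, where 0.0455% of all genes passed in that direction: C1orf198, the phosphate transporter gene SLC20A2 and MVK, the mevalonate kinase gene.

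The genes were also read by lists of known function, chosen with earlier results of these data known and given as counts and medians beside those of all genes, whose median difference of differences was -0.0045, with 48.9% positive. In the main fit 1 of 23 genes known as CREB targets passed, NR4A1, and 9 passed with the replicate number as a block. Of the 23, 20 had a negative difference of differences, and the median of all 23 was -0.85. Their median effect was 1.07 at 2 h, where 13 rose and 1 fell by limma (0.986% and 0.212% of all genes), and 0.31 at 6 h, where 1 rose and 1 fell (0.228% and 0.0455%). The gene that fell at both times was EGR1, an immediate early zinc finger factor, at -1.40 at 2 h (limma adjusted p = 1.30e-06) and -0.81 at 6 h (limma adjusted p = 0.0339), and the one that rose at both was the long noncoding RNA LINC00473, at 3.47 and 1.99 (limma adjusted p = 0.000252 at 6 h). CREM, whose short products repress CREB targets, had 0.55 at 2 h (limma adjusted p = 0.00194) and 0.18 at 6 h (limma adjusted p = 1.00). Without replicate 3 the list's median difference of differences was -0.63, and the member that passed was the neurotrophin gene BDNF, at -1.27 (limma adjusted p = 0.0411), in place of NR4A1. Of its members 11 rose and 1 fell at 2 h and 2 rose and 0 fell at 6 h without replicate 3, when EGR1 at 6 h (limma adjusted p = 0.302) and CREM at 2 h (limma adjusted p = 0.105) no longer passed.

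Of 18 genes for transcriptional repressors, 15 had a negative value, the median was -0.39, and TBX3 passed. The repressor gene PRDM1 had -1.53 ± 0.40 (limma adjusted p = 0.171) after an effect of 2.23 at 2 h, and BHLHE40, which represses clock genes, had -1.14 ± 0.36 (limma adjusted p = 0.610). Without replicate 3 PRDM1 passed, in the same direction (limma adjusted p = 0.00523). Among 25 immediate early transcription factors 10 rose and 2 fell at 2 h by limma, where 0.986% and 0.212% of all genes did, and 0 rose and 1 fell at 6 h, where 0.228% and 0.0455% did. Without replicate 3 the counts were 9 and 3 at 2 h and 1 and 0 at 6 h. Of 21 glucocorticoid-inducible genes 1 passed for the shift, SGK1, and of 25 growth and vascular factor genes 1, EDN1. Among 30 cytokine and chemokine genes 0 passed in the main fit, including IL6 at -2.28 ± 0.66 (limma adjusted p = 0.412). With the replicate number as a block 6 repressor and 8 immediate early genes passed for the shift. So did 3 glucocorticoid-inducible, 2 growth and vascular and 2 cytokine and chemokine genes, and all these values were negative.

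Of 14 cAMP phosphodiesterase genes PDE7B alone passed for the shift in the main fit, with a list median of 0.0082. With the replicate number as a block PDE3A passed too, at 0.84 (limma adjusted p = 0.0376). PDE4D, which had 2.34 at 2 h (limma adjusted p = 0.000665) and 1.47 at 6 h (limma adjusted p = 0.242), and PDE4B, with 0.99 (limma adjusted p = 0.00741) and 0.31 (limma adjusted p = 1.00), had negative differences of differences that did not pass, -0.88 and -0.68. Of 36 glycosaminoglycan and matrix genes CSGALNACT1 alone passed in the main fit, and the median was -0.061. Without replicate 3 it was joined by the matricellular gene CCN2 at -0.92 (limma adjusted p = 0.0411). With the replicate number as a block 2 genes of this list passed with a negative value. Of 37 genes that link the receptor to protein kinase A 0 passed.

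Among 36 mitotic genes the indacaterol effect at 2 h was positive for 1 and negative for 35, where 49.9% of all genes were positive, with a median of -0.21. By limma 3 fell (0.212% of all genes), BORA, CCNF and CDCA8, and 2 without replicate 3, when CDCA8 did not pass (limma adjusted p = 0.0534). At 6 h the median was -0.052 and 0 passed. For the shift 1 passed in the main fit, BORA, and 3 with the replicate number as a block, all positive. The vehicle arm itself had a median of -0.20 from 2 to 6 h, with 1 of 36 positive, where 48.6% of all genes were. With GSK 256066 present the list's median difference of differences was 0.011, beside -0.044 for all genes, and 0.17 without it, beside -0.0045.

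In 2 further lists nearly all members lay on one side, with 0 passing for the shift in the main fit. With the replicate number as a block 2 cholesterol synthesis genes passed, LSS and MVK, and 0 interferon-stimulated genes. All 17 cholesterol synthesis genes had a negative difference of differences, with a median of -0.21, and with GSK 256066 present 0 of 17 were positive, with a median of -0.24. In that arm 38.5% of all genes were positive and their median was -0.044. At 6 h 2 fell by limma (0.0455% of all genes), LSS at -0.50 (limma adjusted p = 0.0488) and MVK at -0.48 (limma adjusted p = 0.000545), which make lanosterol and phosphomevalonate. MVK read 1608, 1402, 1706 and 1419.7 with indacaterol for 6 h, against 2009, 2064, 2423 and 2087 with vehicle, and the groups did not overlap. From 2 to 6 h MVK had -0.19 in the indacaterol arm and 0.13 in the vehicle arm. Without replicate 3 LSS did not pass at 6 h (limma adjusted p = 0.111) and MVK did, and the list's median difference of differences was -0.21.

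Among 30 interferon-stimulated genes 29 had a negative value, with a median of -0.47, and 0 passed. From 2 to 6 h the list's median was -0.025 in the indacaterol arm and 0.41 in the vehicle arm, where all 30 were positive. MX1, an antiviral GTPase, read 1245, 2240.4, 402 and 605 with indacaterol for 6 h, against 2223, 2737, 1282 and 1308 with vehicle. The arrays spread widely within each group and overlapped. With GSK 256066 present 11 of 30 were positive, near the 38.5% of all genes in that arm, and the list's median difference of differences was -0.029, beside -0.044 for all genes. Without replicate 3 it was -0.43 between indacaterol and vehicle. The remaining lists were for hypoxia, metal and amino acid transport, YAP, clock, endoplasmic reticulum stress, ERK feedback and glucose-responsive genes. In these 0 genes passed for the shift in the main fit, and without replicate 3 TXNIP and CCN2 did. With the replicate number as a block 3 transport, 2 hypoxia and 2 clock genes passed, all negative. So did 1 YAP, 1 endoplasmic reticulum stress and 1 ERK feedback gene, also negative. Of the glucose-responsive genes 2 passed with a positive value and 1 with a negative one.

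**Figure D5:**
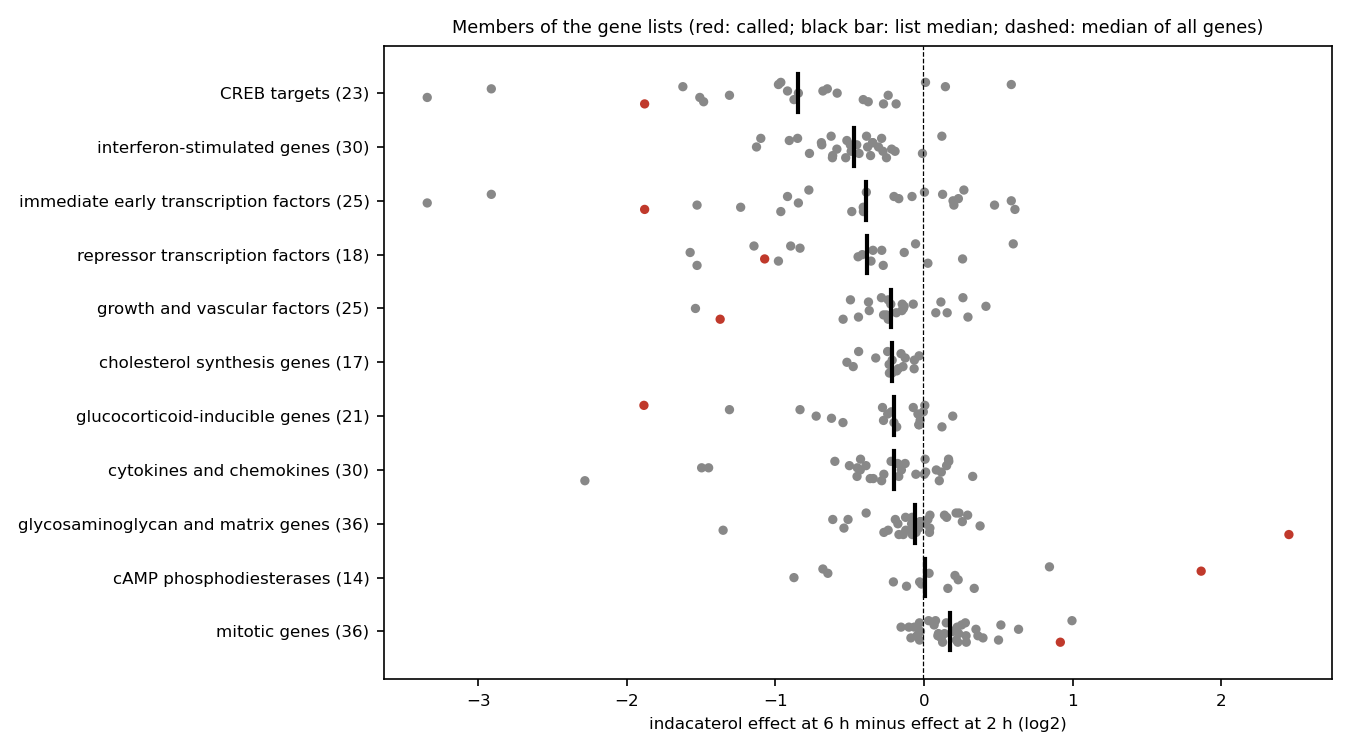
Difference of differences (log2) of each measured member of 11 lists, in red where the gene passed, with a black bar at the list's median and a dashed line at the median of all genes. CREB targets reach the lowest values, and PDE7B and CSGALNACT1 are the only members of their lists that passed in the main fit.

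Replicate 3 and single arrays decided some of these calls. Without replicate 3 20 genes passed, 6 positive and 14 negative, and 7 of the 11 were among them: CSGALNACT1 at 2.24, PDE7B at 1.88, PHF23 at 0.45, SGK1 at -1.89, EDN1 at -1.27, TRIB1 at -1.35 and TBX3 at -1.02. BORA at 0.78 (limma adjusted p = 0.283), HJURP at 0.72 (limma adjusted p = 0.478), NR4A1 at -1.61 (limma adjusted p = 0.177) and ITPRIP at -1.52 (limma adjusted p = 0.248) no longer passed. TXNIP at 1.11 and REL at -0.77 passed, both with a limma adjusted p of 0.0272. Without replicate 1, 2 or 4 there were 5, 1 and 2 genes, and CSGALNACT1 passed in each. Over the 4 fits that leave out a replicate number PDE7B and BORA passed in 2, NR4A1 in 0 and each of the other 7 in 1. Leaving out 1 of the 16 arrays at a time, CSGALNACT1, PDE7B, BORA, PHF23, SGK1 and TBX3 passed in all 16 fits and EDN1 in 15, failing without indacaterol 6 h replicate 3 (limma adjusted p = 0.0562). ITPRIP failed in 4, without vehicle 2 h replicate 4, vehicle 6 h replicate 1, indacaterol 2 h replicate 1 or indacaterol 6 h replicate 3 (limma adjusted p up to 0.0581). TRIB1 failed in 4, without vehicle 2 h replicate 1 or 3, vehicle 6 h replicate 2 or indacaterol 6 h replicate 3 (limma adjusted p up to 0.0704). NR4A1 failed in 7, without indacaterol 2 h replicate 1 or 3, vehicle 2 h replicate 3 or 4, indacaterol 6 h replicate 3 or vehicle 6 h replicate 1 or 2 (limma adjusted p up to 0.0641). HJURP failed in 10, passing without indacaterol 2 h replicate 1 or 4, vehicle 2 h replicate 4, indacaterol 6 h replicate 2 or 4 or vehicle 6 h replicate 1 (limma adjusted p up to 0.139). The number of genes passing was 6 without indacaterol 6 h replicate 3 and 18 without indacaterol 2 h replicate 4, and 8 to 14 without any other single array. No gene of the 11 changed direction in any of these fits, which was likely since they were chosen for their difference on these arrays.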

How the data were processed

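RNA from 64 BEAS-2B samples was measured on Affymetrix arrays. The authors deposited 1 signal intensity per probe set and array, made with PLIER and Transcriptome Analysis Console 4.0, per the submitters' processing notes; the settings are not given in the sources used here. The platform annotation gave a single gene symbol to 41091 of 54675 probe sets, several symbols to 1801 and no symbol to 11721, and 62 were controls. The brightest single-symbol probe set stood for each of 19775 genes. Values were taken as log2(signal + 16) and fitted with limma 3.58.1 in R 4.3.3, on all 64 arrays with a mean for each of 16 groups, so that all groups share 1 estimate of the spread. Tests were two-sided, with Benjamini-Hochberg adjustment over all 19775 genes and a threshold of 0.05. A second comparison used the arrays with GSK 256066. These 2 differences of differences share no arrays, but they share each gene's estimate of spread. Fits were tested on simulated data with independent noise on each array. These lack the deviations that same-numbered samples share, so they cannot show that the p-values are calibrated on the real arrays. Named genes are the 10 greatest positive and negative differences that passed, filled up to 10 of each sign by the smallest p among differences of at least 1, with those next to the threshold, and list members. The members and lists were chosen with earlier results of these data known. Groups and replicate numbers come from the sample labels. Of 24 pairs of same-numbered samples, 23 deviated together with a correlation over 0.1 (lowest 0.0802, median 0.595). Since 1 pair did not, the main fit assumed no pairing by number. That pair was replicate 1 of indacaterol and vehicle at 2 h, and its best correlation with another number was lower, 0.0700. The deviations that same-numbered samples share therefore remain in the main fit's estimate of spread. Replicates of a group correlated at 0.972 to 0.997, and none were identical. The alternatives were pseudocounts of 1 and 64, a filter at a mean signal of 50, quantile normalization, median centring, the mean over probe sets, trended and robust variance, the compared arrays alone, a replicate block, and leaving out replicates or arrays. Promoter windows are from RefSeq (GRCh38.p14), as are gene positions, and 15384 of the 19775 genes had one.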

Additional observations from a re-analysis of the deposited data

Results flagged for a closer look

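In 2 of 80 groups of 4 arrays examined, 1 array stood apart from the other 3, where chance gives about 1 group in 20. Both were EDN1 in vehicle arrays, with replicate 3 the lowest: 643 at 2 h and 557 at 6 h. The other vehicle arrays read 1027 to 1098 at 2 h and 973 to 1006 at 6 h. EDN1 passed for the shift also without replicate 3, at -1.27 (limma adjusted p = 0.000344).

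The effect of indacaterol differed between 2 and 6 h, by the test of the difference itself, for 11 genes. The values on the log2 scale were 2.46 for CSGALNACT1, 1.87 for PDE7B, 0.92 for BORA, 0.86 for HJURP, 0.47 for PHF23, -1.89 for SGK1, -1.88 for NR4A1, -1.57 for ITPRIP, -1.37 for EDN1, -1.34 for TRIB1 and -1.07 for TBX3.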

How the results depend on the processing

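Of the 20 genes named by the rule, 18 kept their direction under all 30 alternatives. PKIA-AS1 and AQP4, which the filter at a mean signal of 50 removed, kept it under the other 29. The genes were named for their differences on these arrays, so a kept direction was likely. The 11 genes that passed for the shift became 11 at a pseudocount of 1, 18 at 64, 14 with the filter at a mean signal of 50 (15924 genes), 43 with quantile normalization (23 positive and 20 negative), 13 with median centring, 14 with the mean over probe sets, 11 with trended and robust variance and 3 with the compared arrays fitted alone, where fewer arrays estimate the spread. With the replicate number as a block there were 162, 38 positive and 124 negative, and 107 when replicate 3 was left out as well. With the block and all replicates 9 of the 23 CREB targets passed, NR4A3, NR4A2 and SIK1 among them. TXNIP, PRDM1, ZNF331, PRAG1, TGIF1, LRRC75A, CCNF and IL6 passed as well. So did REL, BNC1, BHLHE40, EPHA5, ADGRD1, LSS, MVK, PDE3A, CDCA8, CDCA2 and FAM83D. The block result rests on numbers that the labels do not tie to a shared batch, and 18 of 24 pairs correlated best with their own number. Leaving out 1 replicate number gave 1 to 20 genes. For indacaterol against vehicle at 2 h, the 237 genes (195 higher, 42 lower) became 751 with the block and 586 with the block and without replicate 3, quantile normalization gave 204 higher and 132 lower, and leaving out a replicate number gave 99 to 276. At 6 h the 54 genes became 89 with quantile normalization (68 higher, 21 lower), 27 with the arrays alone, 457 with the block and 303 with the block and without replicate 3, and 22 to 97 without 1 replicate number. Vehicle at 6 h against 2 h, 15 genes, gave 29 with centring, 4 with the arrays alone, 3 with the mean over probe sets, 216 with the block, 119 with the block and without replicate 3, 4 to 22 without 1 replicate number and 6 to 27 without 1 array (27 without vehicle 2 h replicate 3). The indacaterol arm, 240 genes, gave 403 with quantile normalization (213 higher, 190 lower), 1193 with the block, 596 with the block and without replicate 3, 114 to 236 without 1 replicate number and 156 to 247 without 1 array. The shift with GSK 256066 present, 6 genes, gave 3 with the mean over probe sets, 86 with the block, 81 with the block and without replicate 3, and 1 to 16 without 1 replicate number. The contrast of the 2 shifts gave 0 throughout. The cause of these changes was not tested. Scaling moved the median shift of all genes by little, -0.0045 as deposited, 0.00055 with quantile normalization and 0.0058 with centring. Dim transcripts limit what could be seen: a probe set near the background gives a compressed difference on this scale.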
